A study of Mus musculus with 8 samples.

Results

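Calr, Canx, Hspa5, Hsp90b1, Pdia3, Pdia4, Pdia6, Dnajb9, Sdf2l1 and Hyou1 encode 10 protein-folding factors of the endoplasmic reticulum (ER), and their transcripts were followed here across 8 RNA-seq libraries of mouse Ba/F3 cells. The genes were chosen by name, as 10 of the 53465 genes in the count table, and all 10 passed the filter on low counts. Earlier results of these data were known when the genes were chosen. Ba/F3 is an immortalized mouse line, labelled as pro-B cells of C3H background, that is commonly grown on interleukin-3. The parental group held 3 libraries, parental 1, 2 and 3, from cells with wild-type U2AF35 (U2AF35-WT). The transformed group held 5 libraries, transformed 4 to 8, from cells labelled as expressing U2AF35(S34F), a mutant form of the small subunit of the splicing factor that recognises the end of introns. The series title asks which functional variants transformed cells carry, and the comparison here is of transcript levels between the 2 groups. The sources used here do not say how the mutant was introduced, under which promoter, in which medium cells were harvested, or whether the libraries came from separate clones or cultures, so p-values measure the spread between these libraries only, which may be partly technical.

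Proteins that enter the ER fold with the help of 3 linked systems. Calreticulin (Calr) in the lumen and calnexin (Canx) in the membrane are lectins that hold newly made glycoproteins by a trimmed sugar, together with the thiol oxidoreductase Pdia3. BiP (Hspa5) is the Hsp70 of the ER; J-domain partners such as Dnajb9 stimulate its ATPase, Hyou1 exchanges its nucleotide, and Sdf2l1 joins its J-domain complexes. Hsp90b1, the Hsp90 of the ER, matures a smaller set of clients that includes integrins and Toll-like receptors, and Pdia4 and Pdia6 form and rearrange disulfide bonds. When unfolded protein accumulates, the sensors ATF6, IRE1 and PERK start the unfolded protein response (UPR), in which ATF6 and XBP1 raise the transcription of most of these genes through a promoter motif, the ER stress response element (ERSE). Calreticulin also binds much of the calcium stored in the ER.

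The table holds raw counts of polyA RNA, 36122062 (transformed 7) to 50305573 (parental 1) per library, with counts for 24386 to 25149 genes. Levels are given as CPM, counts scaled to library size, with the trimmed mean of M-values (TMM) as the scaling factor, and 3 counts correspond to 0.0596 to 0.0831 CPM. Transformed 4 and transformed 7 stood apart from the other libraries of their group: the chi-square per degree of freedom of their counts against each of the other transformed libraries was 110 to 268, against 18.0 to 26.5 among transformed 5, 6 and 8, and fits without them are given below. By the lane tags in the labels, parental 1 and 3 and transformed 5 and 8 ran in lane 6, and parental 2 and transformed 4, 6 and 7 in lane 7. U2af1, the gene of U2AF35, was at 91.7 ± 6.47 CPM (SD, n = 3) in parental and 131 ± 24.4 CPM (SD, n = 5) in transformed libraries, and gene counts do not show which allele was read. Of the markers of the labelled cell type, Ptprc (300 to 501 CPM), Il3ra (38.7 to 67.3 CPM), Cd79a (43.2 to 59.6 CPM), Cd79b (10.8 to 22.0 CPM) and the interleukin-3 receptor chain Csf2rb were present. Csf2rb was at 3015 to 4176 CPM in parental and 825 (transformed 7) to 3354 CPM (transformed 4) in transformed libraries, a log2 difference of -0.93 with an edgeR adjusted p of 0.180, and its part in the results below was not tested. By contrast Kit was at 0 in every library and Pax5, Ebf1, Igll1 and Vpreb1 were at 0.153 CPM or less. Plasma cells are rich in ER chaperones, and the summed level of 7 plasma cell markers was 0.739 to 1.60 CPM in parental and 1.12 to 3.14 CPM in transformed libraries, with Sdc1, Prdm1 and Jchain at or near 0 in all. Fkbp11 of that list was at 0.260 to 0.395 CPM in parental and 0.571 to 0.873 CPM in transformed libraries without overlap (1.03, edgeR adjusted p = 0.0521, called by DESeq2). The sum of 7 macrophage markers, nearly all from Adgre1, ran from 243 to 344 CPM in parental and from 57.4 to 415 CPM in transformed libraries with C1qa at 0 in all. Cd68 among them was lower in transformed cells in edgeR (adjusted p = 0.0484), and the part of these markers in the results below was not tested. Sums of T cell markers stayed under 1.30 CPM.

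Promoter sequences are shown because 5 genes of the set carry the letters of a complete ERSE close to their start. The RefSeq windows of GRCm38.p6 run from 250 bases before to 50 bases after each start, and 9 of the 10 genes had one (Hyou1 had none). The motif, CCAAT and CCACG with 9 bases of any kind between them, was searched on both strands and found in 5 of these 9 windows, against 0.119% of all 32851 windows. Since the ERSE is already known as a motif of such genes, this share and that of its shorter form below describe the windows and test nothing. In each sequence below, read along the gene's own strand, capitals mark the CCAAT and CCACG ends of the motif or, where it lies on the opposite strand, ATTGG and CGTGG.
Calr, chr8:84847045-84847123, minus strand: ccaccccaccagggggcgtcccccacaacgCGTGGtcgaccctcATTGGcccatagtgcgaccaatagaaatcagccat
Canx, chr11:50325770-50325848, minus strand: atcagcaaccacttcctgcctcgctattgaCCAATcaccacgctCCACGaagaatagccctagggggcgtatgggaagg
Hspa5, chr2:34772020-34772049, plus strand: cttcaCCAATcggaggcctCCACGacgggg
Hsp90b1, chr10:86705510-86705686, minus strand: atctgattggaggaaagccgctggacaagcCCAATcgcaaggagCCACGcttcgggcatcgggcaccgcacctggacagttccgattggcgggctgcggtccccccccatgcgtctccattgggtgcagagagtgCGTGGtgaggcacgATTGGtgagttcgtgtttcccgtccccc
Pdia6, chr12:17266461-17266539, plus strand: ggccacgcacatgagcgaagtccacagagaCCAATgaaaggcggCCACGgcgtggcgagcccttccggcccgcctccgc
Distances are from the RefSeq start, and in Hspa5, as in Pdia3 below, the stretch shown lies within an exon of a GENCODE transcript that begins further upstream. The motif began 65 bases before the RefSeq start in Hspa5, 98 in Pdia6, 145 in Canx and 162 in Calr, where it is on the opposite strand. Hsp90b1 holds 2 copies, beginning 212 and 107 bases before the start on opposite strands.

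A shorter form of the motif, without its last base, added Pdia3 and Pdia4, so that it was found in 7 of 9 windows against 0.365% of all windows; every full match also contains this form. For Pdia3 the shorter match lies at chr2:121413868-121413897 on the plus strand, with its 2 ends in capitals: cgcagCCAATcggcggctgCCACactgcgg. In Pdia4 it lies on the opposite strand, beginning 107 bases before the start. ERSE-II (ATTGG and CCACG with 1 base between them, in 0.0365% of all windows) and UPRE (TGACGTGG, in 0.676%), searched on both strands, had no match in the 9 windows, which says only that these letters are not there. The bare CCAAT box, part of the ERSE, was found in 9 of 9 windows and in 37.4% of all windows. A match is a description of the letters and not a measured binding site.

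Calreticulin was the member of the set that differed between the groups past the threshold. Calr (ENSMUSG00000003814, GRCm38 chr8:84841850-84846934, minus strand) was at 1972, 2251 and 2685 CPM in parental 1, 2 and 3. In transformed 4 to 8 it was at 1063, 1281, 1155, 1023 and 1332 CPM. All 5 transformed libraries were below all 3 parental libraries. The mean was 2303 ± 359 CPM (SD, n = 3) in parental and 1171 ± 134 CPM (SD, n = 5) in transformed libraries. Calr was therefore 1.97-fold lower in transformed cells, with a log2 difference of -0.98 (SE 0.12, edgeR adjusted p = 0.0105). In bulk libraries, fewer cells expressing a gene and less RNA per cell cannot be told apart. The difference was -0.94 without transformed 4, -0.93 without transformed 7 and -0.87 without both, with adjusted p of 0.00523, 0.00977 and 0.000763. The call depended on the few parental libraries: without parental 2 the difference was -0.98 with an adjusted p of 0.0598, and without parental 3 it was -0.84 with an adjusted p of 0.0653. At these settings 0.199% and 0.144% of all tested genes passed. Its relatives were at far lower counts, 21 to 110 for the pseudogene Calr-ps, 67 to 117 for the testis form Calr3 and 0 to 2 for Calr4, against at least 35819 for Calr.

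Canx, the membrane-bound lectin that shares the sugar ligand of calreticulin (ENSMUSG00000020368, chr11:50293961-50325673, minus strand), did not follow it down. It was at 526, 535 and 472 CPM in the parental libraries and at 538, 648, 651, 717 and 708 CPM in transformed 4 to 8. The lowest transformed library, transformed 4, lay only just above the highest parental library. The log2 difference was 0.35 (SE 0.11), short of the threshold in edgeR with an adjusted p of 0.107 and past it without transformed 4 (0.41, adjusted p = 0.0153). The ratio of Calr to Canx CPM, which does not depend on library scaling, was 3.75, 4.20 and 5.69 in parental and 1.98, 1.98, 1.77, 1.43 and 1.88 in transformed libraries. The ranges did not overlap, and the mean ratio was 4.55 ± 1.01 (SD, n = 3) against 1.81 ± 0.229 (SD, n = 5).

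Pdia3 (ENSMUSG00000027248, chr2:121413775-121438687, plus strand), the oxidoreductase that both lectins recruit, was at 382, 434 and 395 CPM in parental libraries. Transformed 4 to 8 held 398, 368, 350, 342 and 399 CPM, so the groups overlapped. Its log2 difference was -0.12 (SE 0.09, edgeR adjusted p = 0.459). The 3 genes of the glycoprotein cycle thus had differences of -0.98, 0.35 and -0.12.

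**Figure D1:**
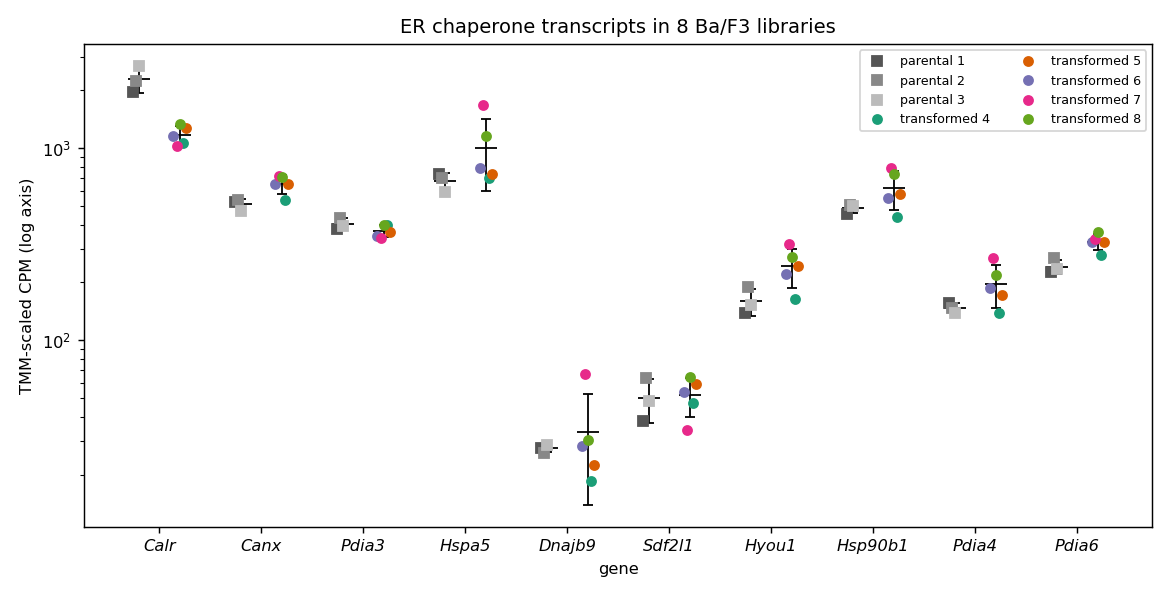
TMM-scaled CPM (log axis) of the 10 ER chaperone genes in each library, with squares for the 3 parental and circles for the 5 transformed libraries; the horizontal bar is the group mean and the vertical bar its SD. Calr sits at 1972 to 2685 CPM in parental and 1023 to 1332 CPM in transformed libraries, and transformed 7 is the highest library for Hspa5, Dnajb9, Hyou1, Hsp90b1, Pdia4 and Canx.

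In the BiP system, Hspa5 and Dnajb9 varied mostly within the transformed group. Hspa5 (ENSMUSG00000026864, chr2:34771970-34777547, plus strand) was at 732, 699 and 592 CPM in parental libraries. It was at 700, 735 and 786 CPM in transformed 4, 5 and 6, at 1152 CPM in transformed 8 and at 1673 CPM in transformed 7. Transformed 4 lay inside the parental range and transformed 5 just above it, while transformed 7 and 8 were well above. The mean was 674 ± 73.3 CPM (SD, n = 3) in parental and 1009 ± 413 CPM (SD, n = 5) in transformed libraries. The log2 difference was 0.58 (SE 0.29, edgeR adjusted p = 0.277). It was 0.32 without transformed 7 and did not pass the threshold under any of the 18 other settings.

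Hyou1 (ENSMUSG00000032115, chr9:44379490-44392369, plus strand), the nucleotide exchange factor of BiP, was at 139, 189 and 153 CPM in parental and at 165, 244, 221, 316 and 272 CPM in transformed libraries. Only transformed 4 lay inside the parental range. Its difference was the highest of the set, 0.61 (SE 0.20), with an edgeR adjusted p of 0.123. Without transformed 4 it was 0.72 with an adjusted p of 0.0189, and without transformed 7 it was 0.50 with an adjusted p of 0.115.

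Dnajb9 (ENSMUSG00000014905, chr12:44205559-44210326, minus strand), a J-domain partner that restrains IRE1 through BiP, was at 27.5, 26.0 and 28.6 CPM in parental libraries. In transformed 4 to 8 it was at 18.5, 22.3, 28.3, 66.8 and 30.1 CPM. Transformed 7 was far above every other library while transformed 4 and 5 were below every parental library. The log2 difference of 0.28 (SE 0.38, edgeR adjusted p = 0.721) took the opposite sign, -0.14, without transformed 7.

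Sdf2l1 (ENSMUSG00000022769, chr16:17130138-17132383, minus strand) was at 38.2, 63.7 and 48.2 CPM in parental and at 47.0, 59.1, 53.6, 34.0 and 64.5 CPM in transformed libraries. The groups overlapped throughout, and in contrast to the rest of the BiP system transformed 7 was its lowest library. The log2 difference was 0.05 (SE 0.22, edgeR adjusted p = 0.928). Within lane 6 it was 0.53 and within lane 7 it was -0.51, and without transformed 4 and 7 it was 0.24 (adjusted p = 0.363).

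Hsp90b1 (ENSMUSG00000020048, chr10:86690209-86705509, minus strand) was at 455, 504 and 500 CPM in parental and at 437, 579, 553, 794 and 739 CPM in transformed libraries. Transformed 4 was the lowest library and the other 4 transformed libraries were above every parental one. The log2 difference was 0.35 (SE 0.18, edgeR adjusted p = 0.292), and it was 0.36 without transformed 4 and 7, with an adjusted p of 0.0320. An antisense pseudogene, 1810014B01Rik, shares 415 exon bases with Hsp90b1 and held counts equal to 2.12% of it, and since the strand setting of the counting is not given, reads of the 2 cannot be told apart there.

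Both disulfide isomerases had higher means in transformed libraries. Pdia6 (ENSMUSG00000020571, chr12:17266545-17284770, plus strand) was at 227, 267 and 234 CPM in parental and at 279, 326, 324, 336 and 366 CPM in transformed libraries, so that all 5 transformed libraries were above all 3 parental ones. Its log2 difference was 0.43 (SE 0.11), just short of the threshold in edgeR with an adjusted p of 0.0612. Pdia4 (ENSMUSG00000025823, chr6:47796141-47813430, minus strand) was at 157, 147 and 138 CPM in parental and at 138, 173, 187, 267 and 220 CPM in transformed libraries. Here transformed 4 equalled the lowest parental library at this rounding and the other 4 were above all parental libraries. The difference was 0.42 (SE 0.19, edgeR adjusted p = 0.233), and without transformed 4 it was 0.52 with an adjusted p of 0.0484.

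Counted over the set, 1 of the 10 genes passed the edgeR threshold of 0.05 after Benjamini-Hochberg adjustment over all 17733 tested genes, and it was lower in transformed cells. Over all tested genes 3.01% passed, 0.908% higher and 2.10% lower. In 3 of the 10 genes the groups did not overlap (Calr lower, Canx and Pdia6 higher), against 17.8% of all tested genes. The log2 difference was above 0 in 8 of the 10 genes with a median of 0.35, while 52.3% of the other tested genes were above 0 with a median of 0.02 and quartiles of -0.21 and 0.22. Calr and Pdia3 were the 2 genes below 0. Because the set was chosen with earlier results of these data known, these shares describe it and test nothing.

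**Figure D2:**
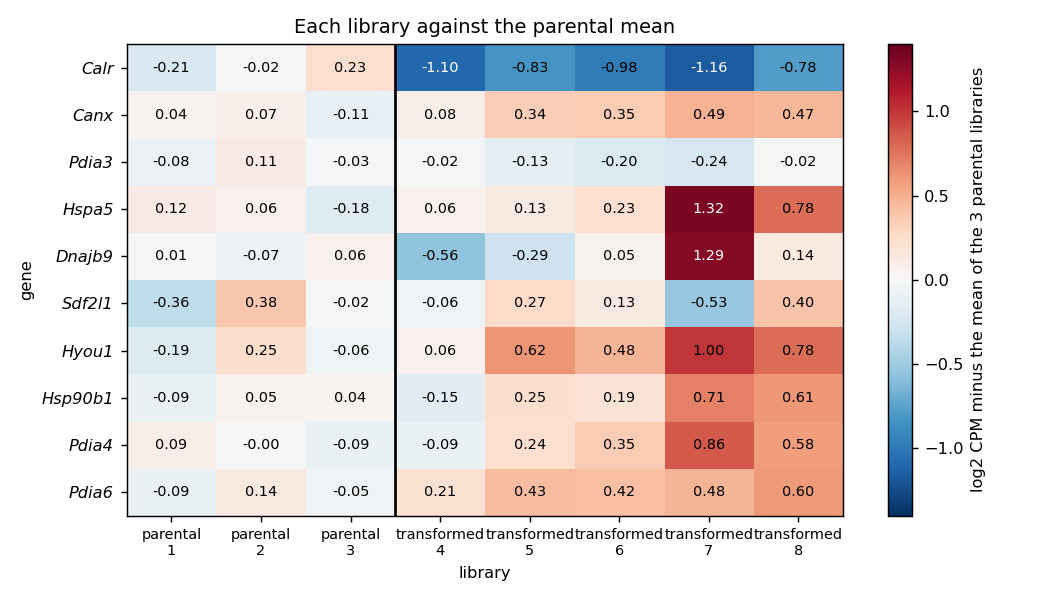
Log2 difference of each library (columns) from the mean of the 3 parental libraries for the 10 genes (rows), in blue where lower and red where higher; a vertical line separates the groups. The Calr row is blue in all 5 transformed libraries (-1.16 to -0.78), and the column of transformed 7 reaches 1.32 for Hspa5 and 1.29 for Dnajb9, with -0.53 for Sdf2l1.

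The distribution of reads within the set moved towards the genes other than Calr. Calr took 42.4%, 44.0% and 51.2% of the counts of the 10 genes in parental libraries. It took 28.1%, 28.9%, 26.8%, 18.4% and 25.2% in transformed 4 to 8. The other 9 genes summed to 2682, 2864 and 2560 CPM in parental and to 2721, 3153, 3153, 4546 and 3950 CPM in transformed libraries, where transformed 4 lay within the parental range. All 10 genes together summed to 5005 ± 310 CPM (SD, n = 3) in parental and 4675 ± 734 CPM (SD, n = 5) in transformed libraries, so that the total differed by less than the spread between transformed libraries. As shares of all counts the 10 genes held 0.473 to 0.531% and 0.378 to 0.540%.

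Per kilobase of exon, which allows levels to be compared between genes, Calr had the highest mean of the 10 in both groups, at 800 CPM per kb in parental and 406 in transformed libraries. Hspa5 followed at means of 159 and 239 CPM per kb, and it stood above Calr in transformed 7 alone, at 396 against 355 CPM per kb. The ratio of Calr to Hspa5 CPM went from 2.69, 3.22 and 4.54 in parental libraries to 1.52, 1.74, 1.47, 0.612 and 1.16 in transformed ones. In parental libraries Pdia3 (129 CPM per kb), Hsp90b1 (121) and Canx (109) came next, and their ranges over libraries overlapped from one to the next. In transformed libraries the order of these means was Hsp90b1 (154 CPM per kb), Canx (139) and Pdia3 (118), again overlapping from one to the next. Pdia6 and Pdia4 lay lower, at 64.7 and 61.4 CPM per kb in parental and 87.1 and 82.1 in transformed libraries. Sdf2l1 (45.2 and 46.6), Hyou1 (22.1 and 33.7) and Dnajb9 (10.7 and 13.0) were the least abundant per length.

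Transformed 7 and transformed 4 set most of the spread. Transformed 7, the library with the fewest counts, was the highest of all 8 libraries in 6 of the 10 genes and the lowest in 3 (Calr, Pdia3 and Sdf2l1), against 26.7% and 27.0% of all tested genes. Transformed 4 was the lowest transformed library in 7 of the 10 genes, against 26.3% of all tested genes. With both left out, 6 of the 10 genes passed the edgeR threshold: Canx, Hsp90b1, Pdia4, Pdia6 and Hyou1 as higher and Calr as lower. At that setting 28.9% of all tested genes passed (12.8% higher and 16.1% lower). Without transformed 4 alone 5 genes passed, namely Canx, Pdia4, Pdia6 and Hyou1 as higher and Calr as lower, with 15.5% of all tested genes passing (6.25% higher and 9.26% lower). Without transformed 7 alone 2 passed, Pdia6 as higher (0.42, adjusted p = 0.0472) and Calr as lower, with 7.62% of all tested genes passing (2.87% higher and 4.76% lower). With any other single library left out, Calr alone passed, or none without parental 2 or 3. At those settings 0.144% to 0.487% of all tested genes passed. The Wald test of DESeq2 on all 8 libraries called 4, Canx, Pdia6 and Hyou1 as higher and Calr as lower, where it called 10.4% of all tested genes (4.79% higher and 5.64% lower).

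Within lane 6, where 2 parental libraries met transformed 5 and 8, the same edgeR test called 6 of the 10 genes, with 20.4% of all tested genes called (9.60% higher and 10.8% lower). Calr (-0.82, adjusted p = 0.0169) was lower, and Hyou1 (0.84, adjusted p = 0.00490), Pdia6 (0.60), Sdf2l1 (0.53), Hsp90b1 (0.48) and Canx (0.46) were higher. Within lane 7, 1 parental library met transformed 4, 6 and 7, its spread being taken from the transformed libraries, and edgeR called 0 of all tested genes, with 507 at an unadjusted p under 0.05. The lane 7 differences were -1.07 for Calr, 0.31 for Hyou1, 0.23 for Pdia6, 0.23 for Hsp90b1, 0.24 for Canx, 0.42 for Pdia4, 0.58 for Hspa5, 0.54 for Dnajb9 and -0.26 for Pdia3. Calr was therefore lower in both lanes, and Canx, Hspa5, Hsp90b1, Pdia4, Pdia6 and Hyou1 were above 0 in both, whereas Dnajb9 (-0.09 in lane 6) and Sdf2l1 changed sign. No gene of the set had an interaction of lane and group past the threshold in edgeR, and the smallest adjusted p was 0.966. With lane as a covariate Calr was at -0.93 with an adjusted p of 0.0244, and 0.530% of all tested genes passed.

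**Figure D3:**
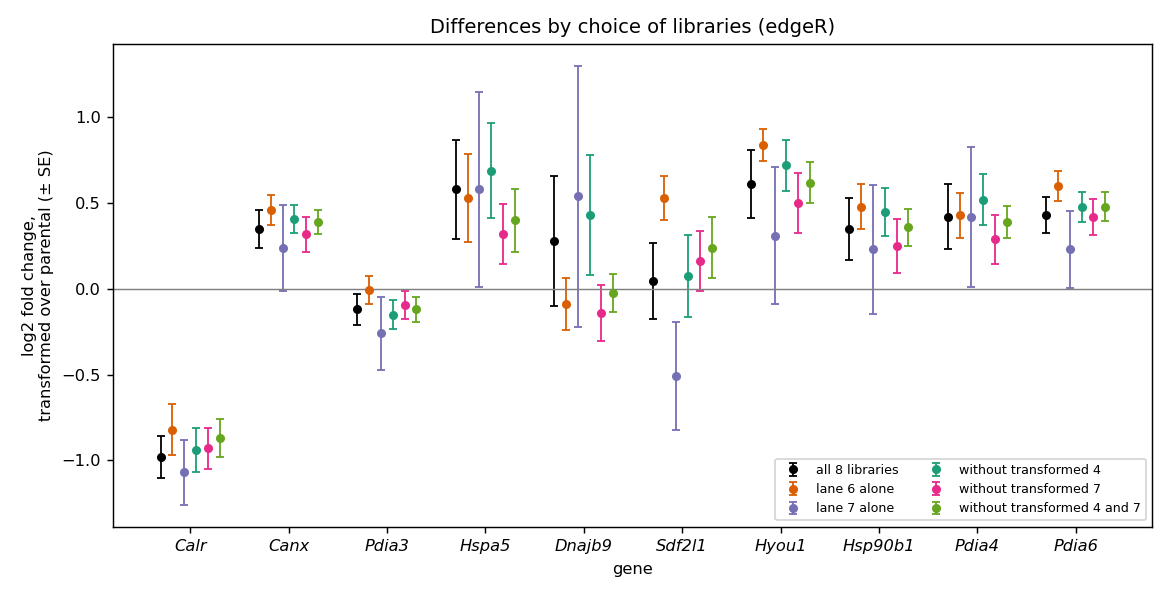
Log2 difference between transformed and parental libraries (points, with SE bars) for the 10 genes in edgeR fits on all 8 libraries, on each lane, and without transformed 4, transformed 7 or both. Calr stays between -1.07 and -0.82 in these 6 fits, and Dnajb9 and Sdf2l1 lie on both sides of 0.

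Calr lies on chromosome 8, where the 960 other tested genes had a median log2 difference of -0.09. Of the 86 tested genes within 2 Mb of Calr, 61 were below 0, the median was -0.18, and 7 were at or below the value of Calr. There 5 genes passed the threshold, all as lower, and they are named here after their values were seen: Mylk3, Fbxw9, Dnase2a, 1700122E12Rik and G430095P16Rik. Dnase2a, a lysosomal nuclease, went from a mean of 77.4 to 47.6 CPM. The nearest, 1700122E12Rik, is a transcript read away from Calr on the plus strand whose start lies 0.0003 Mb from that of Calr, on the far side of the ERSE shown above. It held 26, 39 and 29 counts in parental and 11, 14, 14, 4 and 10 counts in transformed libraries, a log2 difference of -1.47 (SE 0.29, edgeR adjusted p = 0.0375). Both transcripts beside this ERSE were thus lower in transformed cells, the second at very low counts.

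**Figure D4:**
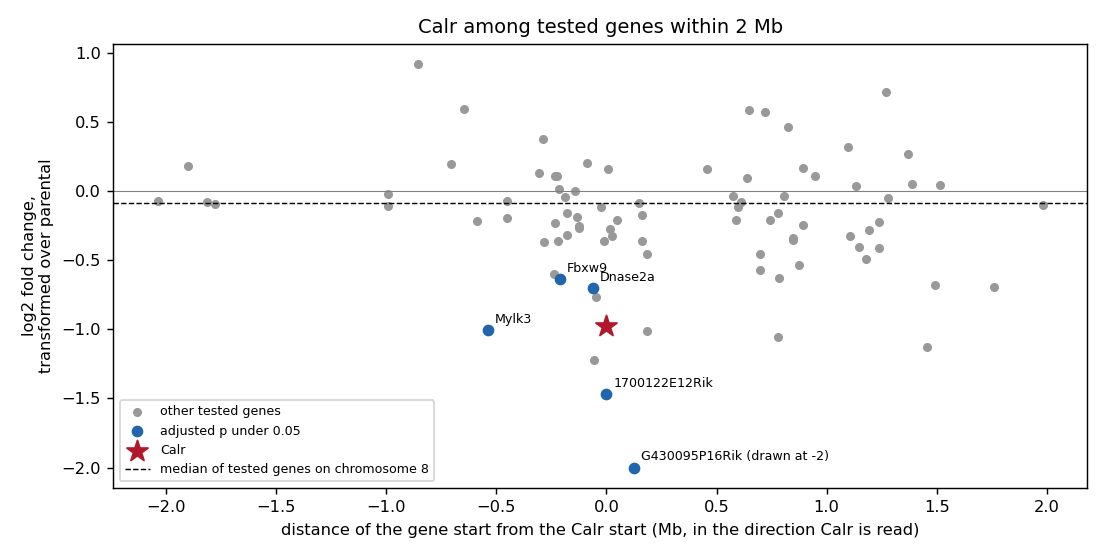
Log2 difference of tested genes within 2 Mb of Calr against the distance of their starts from the Calr start (Mb), with Calr as a star, genes past the adjusted threshold in blue and the median of chromosome 8 as a dashed line. Calr, at -0.98, lies below 79 of the 86 genes, and G430095P16Rik, whose value is below the axis, is drawn at its lower edge.

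The other 9 genes lay on 7 further chromosomes. Sdf2l1 was surrounded by lower values, with 55 of 63 tested genes within 2 Mb below 0 and a median of -0.26, as was Pdia3, with 51 of 65 below 0 and a median of -0.23. Hspa5 was at or above 36 of the 37 tested genes within 2 Mb (median -0.23), and Hyou1 at or above 61 of 62 (median -0.12). The surroundings of Canx, Hsp90b1, Pdia4, Pdia6 and Dnajb9 had medians from 0.09 to 0.28.

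Among 6556 well expressed genes, likeness to Calr was measured as the root mean square difference between log2 CPM profiles over the 8 libraries after centring. The 5 nearest were Pip5k1b (0.115), Myb (0.126), Bace1 (0.163), Tmem229b (0.167) and Tbc1d2b (0.169). Myb, a transcription factor of haematopoietic progenitors, was at 388, 398 and 485 CPM in parental and 242, 254, 256, 210 and 243 CPM in transformed libraries. The lower level of these 5 genes in transformed libraries follows from their choice by likeness to Calr. The nearest profiles to Hspa5 were those of Prkx (0.118), Grap (0.138), Calu (0.148), Mtdh (0.152) and Diaph2 (0.156). Calu, a calcium-binding protein of the secretory pathway, was at 235, 205 and 215 CPM in parental and 228, 260, 291, 524 and 309 CPM in transformed libraries. These profiles share the high value of transformed 7, which follows from their choice by likeness to Hspa5.

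The surrounding pathways were followed in 8 further lists of 150 genes, of which 145 were tested. In edgeR 1 of the 145 passed as higher (Dnajc3) and 1 as lower (Orai1), against 3.01% of all tested genes. At an unadjusted p under 0.05 there were 3937 of all 17733 tested genes, and DESeq2 called 17 of the 145 where it called 10.4% of all tested genes. Counts of both kinds given below for single lists are to be read against these. Because the lists were chosen with earlier results of these data known, the next shares describe them and test nothing. Without transformed 4 edgeR called 31 of the lists' genes (25 higher, 6 lower), where 15.5% of all tested genes passed (6.25% higher, 9.26% lower). Without transformed 7 it called 18 (13 higher, 5 lower), where 7.62% passed (2.87% higher, 4.76% lower). With transformed 4 and 7 left out it called 64 (53 higher, 11 lower), where 28.9% passed (12.8% higher, 16.1% lower). Each gene of these 8 lists that is named below by its p in the fit of all libraries passed with both left out, in the same direction, except Creb3 (0.20, adjusted p = 0.227). These genes were picked for small p in a fit that holds the same libraries, so these passes are no separate support. Among 29 other ER folding factors 18 were above 0, with a median of 0.10. Dnajc3, a J-domain partner of BiP that also inhibits PERK, rose from 93.5, 78.1 and 75.6 CPM in parental to 121, 113, 114, 157 and 126 CPM in transformed libraries, with no overlap. Its log2 difference was 0.62 (SE 0.13, edgeR adjusted p = 0.0433), and the adjusted p was 0.0947 with lane as a covariate and 0.0841, 0.161 and 0.226 without parental 1, 2 or 3. It also missed the threshold without transformed 5, 6 or 8 (0.0777, 0.0895 and 0.106). At these settings 0.144% to 0.530% of all tested genes passed. Dnajc3 passed the edgeR threshold without transformed 4 (0.63, adjusted p = 0.0212) and without transformed 7 (0.53, adjusted p = 0.0183). There 15.5% and 7.62% of all tested genes passed. Txndc5 (0.42) and Creld2 (0.37), an oxidoreductase and a UPR target, had adjusted p of 0.0643 and 0.0810.

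Of the 16 tested UPR sensors and transcription factors 14 were above 0, with a median of 0.27, and none passed the edgeR threshold, with 2 at an unadjusted p under 0.05 (Atf6b and Mbtps2). DESeq2 called Mbtps2 alone and limma-voom none. Mbtps2, a protease that releases ATF6 from the membrane, was at 45.5, 48.1 and 44.2 CPM in parental and 59.1, 56.0, 59.4, 70.9 and 59.7 CPM in transformed libraries (0.41, edgeR adjusted p = 0.0583). In 12 of these 16 genes transformed 7 was the highest of the 8 libraries, against 26.7% of all tested genes, and in 2 (Mbtps1 and Nfyc) it was the lowest. It was also the highest for 24 of 29 ER import and N-glycosylation genes and 14 of 22 genes of ER-associated degradation. Several of the 12 genes are given with their values in transformed 7, and were named after these were seen. Ddit3, the stress factor CHOP, was at 126 CPM in transformed 7 and at 15.5 to 24.2 CPM in the other transformed libraries. Ppp1r15a, which reverses the PERK-driven block of translation, was at 664 CPM in transformed 7 and at 74.3 to 164 CPM in the others. Atf4 was at 944 CPM against 358 to 505 CPM, Atf6 at 244 against 73.2 to 118 CPM, and Xbp1 at 291 against 119 to 238 CPM.

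Of the ER import and N-glycosylation genes 27 of 29 were above 0, with a median of 0.31, and none passed the edgeR threshold although 13 were at an unadjusted p under 0.05. DESeq2 called 4 of them, all higher, and limma-voom 0. Sec61b, a subunit of the translocation channel, was at 71.2 ± 3.46 CPM in parental (SD, n = 3) and 93.6 ± 7.58 CPM in transformed libraries (SD, n = 5), with an edgeR adjusted p of 0.0531. Ssr2 of the translocon-associated complex (0.48) and Dad1 of the oligosaccharyltransferase (0.37) had adjusted p of 0.0775 and 0.0684. All 3 passed without transformed 4 (adjusted p of 0.0228, 0.0202 and 0.0363) and without transformed 7 (0.0341, 0.0325 and 0.0393). All 3 missed the threshold with any other single library left out, and with lane as a covariate (adjusted p of 0.0957, 0.141 and 0.129). ER-associated degradation had 15 of 22 genes above 0 and a median of 0.09, with none past the edgeR threshold and 3 at an unadjusted p under 0.05. DESeq2 called 2 (Selenos higher and Syvn1 lower) and limma-voom 0. Its component Selenos was at 0.87 (adjusted p = 0.0680) and passed without transformed 4 (adjusted p = 0.00694) or 7 (adjusted p = 0.0454), while the ubiquitin ligase Syvn1 was at -0.28 (adjusted p = 0.0823) and the mannosidase Man1b1 at -0.30 (adjusted p = 0.178). Without transformed 4 both passed as lower (adjusted p of 0.0442 and 0.0143), and without transformed 7 Syvn1 alone of them did (0.0394). Selenos, Syvn1 and Man1b1 missed the threshold with any other single library left out, and with lane as a covariate.

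ER calcium genes split evenly, with 8 of 15 above 0 and a median of 0.04. Orai1, the plasma membrane channel that opens when ER calcium falls, was lower in transformed cells, at 27.7, 34.5 and 38.5 CPM in parental and 19.3, 20.4, 22.8, 17.5 and 24.2 CPM in transformed libraries. Its log2 difference was -0.69 (SE 0.14, edgeR adjusted p = 0.0397). The call was lost with lane as a covariate (adjusted p = 0.0863) and in lane 6 alone (-0.56, adjusted p = 0.0722). In lane 7 alone, which holds 1 parental library, the difference was -0.80. The call was also lost without parental 1, 2 or 3 (0.0702, 0.150 and 0.227) and without transformed 5, 6 or 8 (0.0941, 0.0895 and 0.0786). With these libraries left out in turn, 0.144% to 0.487% of all tested genes passed. The ER calcium sensor Stim2 was at -0.40 (adjusted p = 0.120) and the calcium-binding Rcn2 at 0.39 (adjusted p = 0.0612).

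The KDEL retrieval list holds genes that bring escaped chaperones back from the Golgi, and also genes of a cargo receptor, Lman1 and Mcfd2. In this list 6 of 6 tested genes were above 0 (median 0.20). In edgeR, DESeq2 and limma-voom 0 of them passed, with 2 at an unadjusted p under 0.05 in edgeR. Kdelr2 was at 0.25, Lman1 at 0.55 and Mcfd2 at 0.79, with adjusted p of 0.204, 0.202 and 0.335. Without transformed 7 Mcfd2 was at 0.25 (adjusted p = 0.167) and Lman1 at 0.39 (adjusted p = 0.205), while without transformed 4 Lman1 (0.69, adjusted p = 0.0232) and Kdelr2 (0.30, adjusted p = 0.0322) passed as higher. Lman1 and Kdelr2 missed the threshold with any other single library left out. Chaperones outside the ER had medians of 0.16 (cytosol, 16 of 18 above 0) and 0.26 (mitochondria, 9 of 10 above 0). In the cytosol Hspa4 (0.41), Cct6a (0.33) and Cct5 (0.26) had the smallest p, and in mitochondria Hspd1 (0.34), Trap1 (0.44) and Dnaja3 (0.55). Without transformed 4 the mitochondrial genes passed as higher (Hspd1 0.44, Trap1 0.58, Dnaja3 0.71, adjusted p of 0.0159, 0.0104 and 0.0355), and without transformed 7 Dnaja3 was at 0.34 (adjusted p = 0.347). Hspd1, Trap1 and Dnaja3 missed the threshold with any other single library left out. None of the genes of both lists passed the edgeR threshold with all libraries, with 6 cytosolic and 0 mitochondrial genes at an unadjusted p under 0.05. DESeq2 called Cct5 and Cct6a, limma-voom neither.

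**Figure D5:**
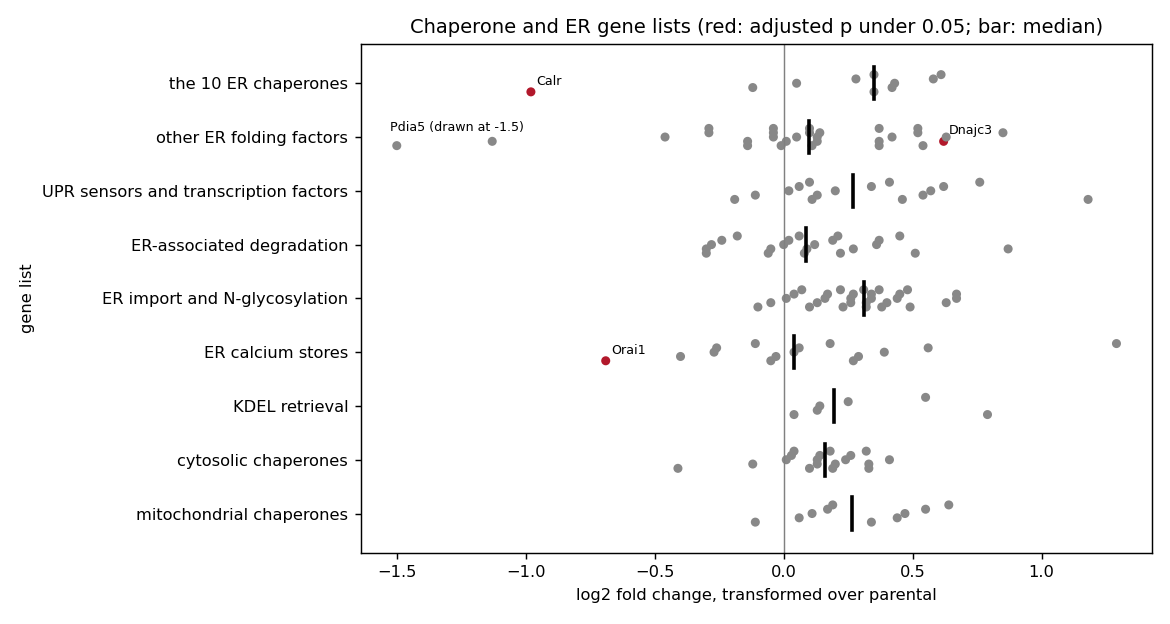
Log2 difference between transformed and parental libraries for each tested gene of the 10 ER chaperones and 8 further lists, with black bars at list medians and red points for genes past the adjusted threshold. Calr and Orai1 are the red points below 0 and Dnajc3 is the red point above 0.

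Beyond the 10 genes, a search of all windows for the full ERSE found it at 37 gene symbols in all, of which 15 were tested and 10 of those were outside the set. Of these 10, 4 were above 0 and the median was -0.10. Of them edgeR called Dnajc3 as higher and 1700122E12Rik as lower, against 0.908% and 2.10% of all tested genes. The ERSE of Calr also lies before the start of 1700122E12Rik, so the match of 1700122E12Rik need not be a further site. Alg12 of N-glycosylation (0.48, edgeR adjusted p = 0.101) and Creld2 (0.37) were above 0, and Syvn1 (-0.28) and Pan2 (-0.33) were below it. The 5 ERSE genes of the set had differences of -0.98 (Calr), 0.35 (Canx), 0.58 (Hspa5), 0.35 (Hsp90b1) and 0.43 (Pdia6), so that Calr differed in sign from the other 4.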

How the data were processed

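PolyA RNA of 3 parental and 5 transformed Ba/F3 libraries was made with a TruSeq kit, per the labels' protocols. The deposited values are raw counts per Ensembl gene in 1 table; per the submitters' processing notes STAR 2.5.3a and featureCounts 1.5.3 were used with mm10 (GRCm38.p5). No source used here gives the strand setting, the treatment of multi-mapped reads or the annotation release. Symbols, coordinates and union exon lengths came from a GENCODE GRCm38 annotation, which lacked 105 of 53465 identifiers, and promoter windows from RefSeq. The 10 genes and all lists were chosen with earlier results of these data known. The named genes were the 10 genes, the 3 of each further list with the smallest p, any list gene past the threshold, and the 5 profiles nearest to Calr and to Hspa5 among genes with a mean log2 CPM of at least 5; others were named after their values were seen.

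Counts were tested with the quasi-likelihood test of edgeR 4.0.16 in R 4.3.3 (filterByExpr, TMM factors, robust fit, 2-sided), with Benjamini-Hochberg adjustment over all 17733 tested genes and a threshold of 0.05. The common biological coefficient of variation was 0.23. Alternatives were DESeq2 1.42.0, limma-voom 3.58.1, other scaling factors and filters, lane as a covariate, each lane alone, and fits without 1 or 2 libraries; the interaction of lane and group was added after seeing the data. The scripts were tested on simulated data. The depth of 36122062 to 50305573 counts per library makes counting error small for these genes, so that the spread between libraries limits precision.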

Additional observations from a re-analysis of the deposited data

Results flagged for a closer look

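Of 38 measures checked within the 5 transformed libraries (gene levels, and sums, shares and ratios of the ER chaperones), 7 had a library whose gap to the nearest other exceeded the critical share of the range (0.71). Chance flags about 1 in 20 of independent measures, but these are not independent and partly come from genes picked for small p. All flags fell in transformed 4 or 7, which stood apart over all genes, so their number shows nothing particular to ER genes. Transformed 7 was far above the rest for 4 genes: Dnajb9 at 66.8 CPM (others 18.5 to 30.1), Dnajc3 at 157 CPM (others 113 to 126), Mbtps2 at 70.9 CPM (others 56.0 to 59.7) and Mcfd2, a cargo receptor partner, at 137 CPM (others 36.5 to 47.2). Transformed 4 was far below the rest for 3 genes: Atf6b at 92.0 CPM (others 122 to 131), and the mitochondrial chaperones Hspd1 at 519 CPM (others 747 to 814) and Trap1 at 151 CPM (others 264 to 284).

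The Sdf2l1 difference between groups was higher in lane 6 than in lane 7 by 1.02 on the log2 scale (SE 0.35), with both transformed libraries of lane 6 above both parental ones and all 3 transformed libraries of lane 7 below the parental one. The interaction did not pass the edgeR test over all genes (adjusted p = 0.966).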

How the results depend on the processing

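Over 18 other settings Calr stayed lower, at -1.07 to -0.82, and passed the threshold in 15; it missed it in lane 7 alone and without parental 2 or 3. Hspa5 and Pdia3 kept their direction and passed in none. Over all tested genes edgeR called 533, and separate totals were 1851 with DESeq2, 94 with lane as a covariate, 3565 in lane 6 alone, 0 in lane 7 alone, 5042 without transformed 4 and 7, and 26 to 2728 with 1 library left out. Of the 10 ER chaperones, 1 was called by edgeR, 4 by DESeq2 (Canx, Pdia6 and Hyou1 higher, Calr lower), 6 in lane 6, 0 in lane 7, 6 without transformed 4 and 7, and 0 to 5 with 1 library left out. Of the further lists, 2 genes were called by edgeR, 17 by DESeq2, 0 with lane as a covariate, 49 in lane 6, 0 in lane 7, 64 without transformed 4 and 7, and 0 to 31 with 1 library left out. The sign turned for Dnajb9 in lane 6 (-0.086) and without transformed 4 and 7 (-0.025), and with 1 library left out it ran from -0.14 (without transformed 7) to 0.43. For Sdf2l1 it turned in lane 7 (-0.51), and with 1 library left out it ran from -0.11 (without parental 1) to 0.27, being -0.0068 without transformed 5 and -0.047 without transformed 8. The cause of these changes was not tested. No paired analysis was possible because the groups share no replicate numbers in the labels.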

Other observations

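Pdia5, a disulfide isomerase outside the naming rule and singled out after its values were seen, was at 3.30, 8.43 and 9.51 CPM in parental libraries and at 2.30 CPM in transformed 4. Transformed 5 held 0 counts of it, and transformed 6, 7 and 8 held 8, 2 and 1 counts, or 0.176, 0.0571 and 0.0211 CPM. Every transformed library was below every parental one, and the adjusted p was 0.123 in edgeR, while limma-voom called it as lower. The values of 0 and of 1 and 2 counts are at or under the 3 counts taken as a floor, so that no fold is given.

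Sel1l, the partner of Syvn1 in ER-associated degradation and likewise outside the rule, was at 287 CPM in transformed 7 and at 103 to 125 CPM in the other transformed libraries.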
